A study of Mus musculus with 12 samples.

Results

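The response of Yap/Taz knockout hepatocytes to carbon tetrachloride (CCl4) was measured as the difference between 3 injured libraries, labelled Yap/Taz KO + CCl4, and 3 uninjured ones, labelled Yap/Taz KO. These 6 libraries, of 12 in the series, were chosen by their labels alone and were compared across all genes. The mice carried floxed alleles of both genes (Yapflox/flox; Tazflox/flox), where Taz is the protein of the gene Wwtr1. Both knockout groups had received the vector AAV8.TBG.PI.Cre, in which the hepatocyte TBG promoter drives Cre recombinase, through the tail vein. Injured mice were given CCl4 at 1 ml/kg in corn oil by intraperitoneal injection 3 weeks after the vector, and hepatocytes were taken 48 h later. The comparison groups, ctrl and ctrl + CCl4, carried the same floxed alleles, and the labels name no control vector for them and no oil injection for any uninjured group. The labels state neither age nor sex, nor whether the 3 samples of a group came from separate animals, and a p-value here speaks only of the spread from sample to sample, which could be technical.

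YAP and TAZ are transcriptional coactivators held back by the Hippo kinase cascade, and with TEAD factors they drive genes of growth and of the cytoskeleton. CCl4 is turned into a radical by cytochrome P450 enzymes, chiefly Cyp2e1, in hepatocytes around the central vein, which die. The surviving hepatocytes leave quiescence, copy their DNA and divide, while inflammatory cells clear the debris. Hepatocytes also make most plasma proteins and carry the enzymes of drug, amino acid, bile acid and lipid metabolism, and these functions are known to dip while liver cells divide.

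Livers were perfused with collagenase, hepatocytes were enriched by low-speed spins, and 500000 sorted cells made each library. The labels do not describe the gate of the sort. The 3' tags were counted per gene symbol, and total counts were 2288721 to 2677624 in the uninjured and 2906256 to 2972128 in the injured libraries. Levels are given below as CPM (counts scaled to a common library size) after scaling by edgeR's TMM factors, with 3 values always in the order of libraries 1, 2 and 3. Fold changes are log2 values with standard errors (SE) and Benjamini-Hochberg adjusted p-values from edgeR's quasi-likelihood test. Yap1 stood at 22.1, 9.61 and 14.8 CPM before and 14.8, 14.2 and 14.4 CPM after injury, and Wwtr1 at 15.6, 10.1 and 18.2 and 25.1, 19.8 and 24.7 CPM. Both transcripts were read in every knockout library, and a 3' tag outside the deleted exons checks nothing about the deletion. Neither passed the test of the injury response (log2 fold change -0.10 ± 0.31 SE, adjusted p = 0.876, and 0.66 ± 0.33 SE, adjusted p = 0.186). Uninjured library 1 and injured libraries 1 and 2 also held transcripts of pancreatic acinar cells (their share of counts was 0.624%, 0.00459% and 0.0166% in the uninjured and 0.269%, 1.04% and 0.00454% in the injured libraries).

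The injury response was broad. Of 37141 gene rows, 10780 passed the low-count filter and were tested. A gene that was near 0 before injury passed that filter only through its injured libraries. In all, 1013 genes rose and 900 fell, which is 9.4% and 8.35% of genes tested. The rises were larger: 602 genes rose by at least 4-fold against 138 that fell by as much, and 215 against 20 at 16-fold. The median log2 fold change of all tested genes was 0.03, and the 3 injured libraries did not overlap the 3 uninjured ones in 39.4% of genes. With scaling by library totals in place of TMM, 1809 genes rose and 410 fell (81.5% rises against 53%) and the median moved to 0.40, so directions below are relative to the bulk of genes. Leaving out uninjured library 2 left 626 rises and 568 falls, and leaving out injured library 1 left 660 and 516.

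Genes of cell division gave the largest rises. Across 11 lists that follow the cell cycle from origin licensing to cytokinesis, 195 of 267 tested members (73%) rose and none fell (1 with DESeq2 and with limma-voom), against 9.4% of all genes that rose. The median log2 fold change was 2.87. Another 23 members that the table holds did not pass the low-count filter.

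**Figure D1:**
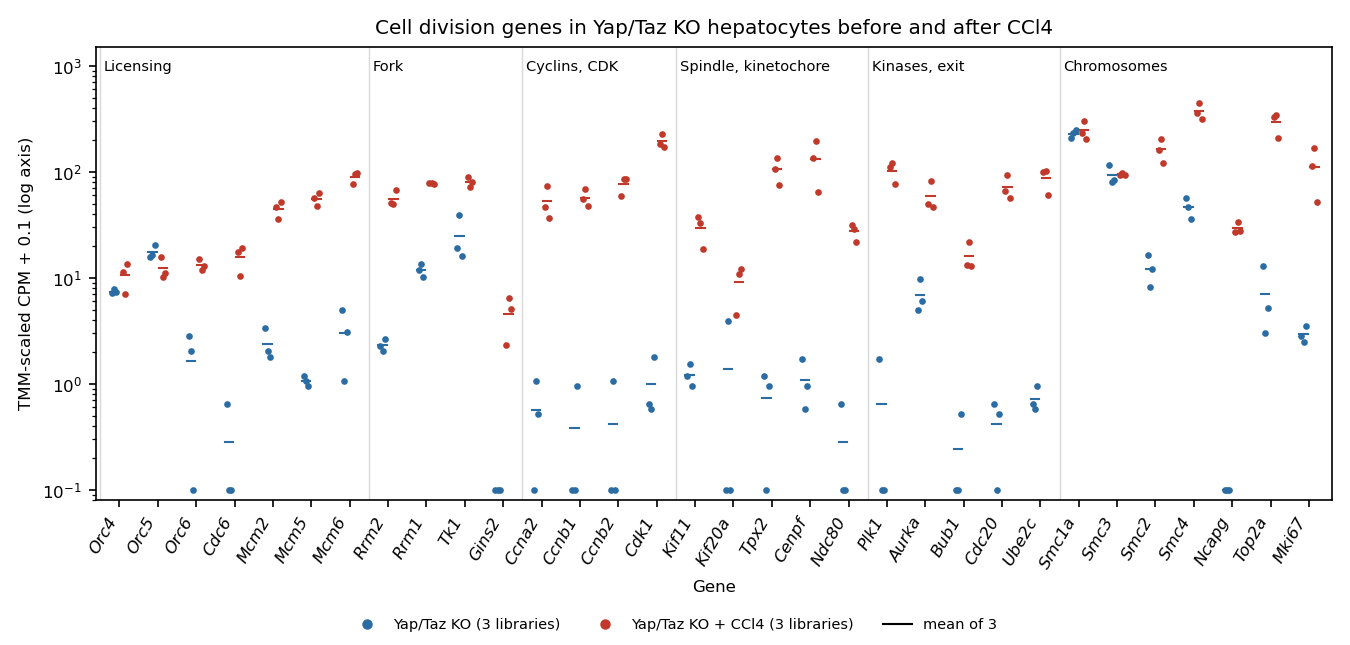
Levels of cell division genes in each Yap/Taz KO library before (blue) and after CCl4 (red), as TMM-scaled CPM plus 0.1 on a log axis, where points are libraries and short lines are means of 3. The origin subunits Orc4 and Orc5 and the cohesin genes Smc1a and Smc3 overlap between the groups, while the other genes lie higher in every injured library.

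Replication begins when the origin recognition complex recruits Cdc6 and Cdt1, which load the MCM helicase. In the list of licensing and firing factors 17 of 23 tested members rose, with a median of 2.85. The helicase subunit Mcm5 went from 1.08, 0.961 and 0.848 CPM to 56.9, 47.2 and 63.2 CPM (5.80 ± 0.90 SE, adjusted p = 7.95e-05). Mcm2 went from 3.24, 1.92 and 1.7 to 46.5, 35.9 and 51.9 CPM (4.29 ± 0.57 SE) and Mcm6 from 4.85, 0.961 and 2.97 to 77.3, 94.1 and 97.9 CPM (4.94 ± 0.73 SE). Their groups were far apart in every library. Mcm3 and Mcm7 rose by 2.92 ± 0.36 SE and 2.32 ± 0.27 SE. Cdt1 was at 5.93, 4.8 and 4.24 CPM before and 32.7, 31.1 and 43.8 CPM after (2.84 ± 0.37 SE). Cdc6 had 1 count in all 3 uninjured libraries together and 17.3, 10.4 and 19.1 CPM in the injured ones, a ratio of 98.1 (95% counting interval 17.3 to 3901). Subunits of the origin recognition complex gave different calls. Orc6 rose (2.7, 1.92 and 0 to 14.8, 11.6 and 12.8 CPM, 3.11 ± 0.68 SE, adjusted p = 0.00364). Orc4 (7.01, 7.69 and 7.21 and 11.3, 6.92 and 13.4 CPM, adjusted p = 0.624) and Orc5 (15.6, 16.3 and 20.4 and 15.7, 10.1 and 10.9 CPM, adjusted p = 0.369) did not pass.

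The replication fork and its supply of nucleotides followed, with 25 of 33 members up and a median of 2.28. Ribonucleotide reductase, which makes deoxynucleotides, has a large subunit Rrm1 and a small subunit Rrm2. Rrm1 went from 11.9, 13.5 and 10.2 to 77.6, 78.6 and 75.7 CPM and Rrm2 from 2.16, 1.92 and 2.54 to 50.9, 49.7 and 66.6 CPM. Their log2 fold changes were 2.71 ± 0.28 SE and 4.62 ± 0.69 SE (adjusted p = 1.82e-05 and 1.96e-04). The DNA ligase Lig1, which joins Okazaki fragments, was at 12.9, 13 and 13.1 CPM in uninjured and 179, 167 and 156 CPM in injured libraries (3.68 ± 0.40 SE). The clamp loader subunit Rfc1 rose by less (0.81 ± 0.18 SE, adjusted p = 0.00707). Gins2 of the active helicase had no count before injury and was at least 9.44-fold higher after.

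Among cyclins, CDKs and their regulators 16 of 24 members rose (median 2.16). Cdk1, the kinase that drives mitotic entry, went from 0.539, 0.48 and 1.7 to 182, 224 and 172 CPM (7.60 ± 1.23 SE, adjusted p = 1.10e-04). Its mitotic partners were nearly silent before injury. Ccnb1 and Ccnb2 had 2 counts each over the uninjured libraries and 54.7, 68.6 and 46.9 and 58.5, 84.9 and 84.7 CPM in the injured ones, ratios of 178 (95% counting interval 49.2 to 1477) and 239 (95% counting interval 66 to 1980.3). Cyclin A2 (Ccna2), which acts in S phase and G2, reached 46.5, 73.9 and 36.6 CPM, a ratio of 109.8 (95% counting interval 37.3 to 534). The G1/S cyclin genes Ccne1 and Ccne2 reached 19.5, 23.9 and 26 and 18.2, 19.2 and 14.4 CPM, with a ratio of 48.5 (95% counting interval 16.4 to 237) for Ccne1 and a log2 fold change of 3.56 ± 0.70 SE for Ccne2. Cyclin D1 (Ccnd1), which links growth signals to the cycle, was already at 225, 39.9 and 84.8 CPM before injury and at 297, 271 and 551 CPM after. It rose by 1.68 ± 0.46 SE (adjusted p = 0.023), but the adjusted p was 0.0668 without uninjured library 2, 0.0898 without uninjured library 3 and 0.111 without injured library 3. The CDK inhibitor gene Cdkn1a was higher in every injured library (87.9, 182 and 81.4 and 261, 322 and 223 CPM) and did not pass (adjusted p = 0.125). It passed in the fit of only the 6 knockout samples (adjusted p = 0.0172), with library totals (0.0419), with limma-voom (0.0394) and without the low-count filter (1.88e-04).

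Transcription factors of the cell cycle were less uniform, with 7 of 18 up and a median of 0.79. E2f1, an activator of S phase genes, went from 0, 0.961 and 2.97 to 17.6, 23 and 18.1 CPM (3.76 ± 0.82 SE, adjusted p = 0.00285). Foxm1, which drives genes of G2 and mitosis, had 1 count before injury and 16.3, 17.3 and 13.8 CPM after, a ratio of 99.4 (95% counting interval 17.6 to 3953). Mybl1 rose by 4.44 ± 0.92 SE. Rbl2 and Tfdp2, of the complexes that hold cell cycle genes silent or on, were at 12.9, 38.4 and 31.8 and 16.3, 20.4 and 13.8 CPM and at 29.1, 57.2 and 34.8 and 28, 25.5 and 29.7 CPM, and neither passed. Myc had 3 counts before injury and 1.89, 2.83 and 10.3 CPM after, a ratio of 10.5 (95% counting interval 3.4 to 52.9), and did not pass (adjusted p = 0.0969), although it passed with DESeq2 (0.0463), without uninjured library 1 (0.0498) and without the low-count filter (0.0228).

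The machinery of mitosis gave the highest medians. In the list of mitotic kinases and the spindle checkpoint 20 of 21 members rose, with a median of 5.61 (5.28 with genes at 0 set to their bounds). Among spindle proteins and kinesins 24 of 28 rose (median 4.76, 4.71 with bounds), and among kinetochore and centromere genes 30 of 35 (median 4.17, 3.59 with bounds). The polo kinase gene Plk1 had 3 counts before injury, all in library 1, and 109.7, 120.2 and 76.9 CPM after, a ratio of 214 (95% counting interval 73.2 to 1042). Aurka, the kinase of the spindle poles, went from 4.85, 9.61 and 5.94 to 49.7, 81.2 and 46 CPM (3.10 ± 0.35 SE). Birc5 (survivin) of the chromosomal passenger complex went from 1.62, 1.44 and 0 to 143, 146 and 133 CPM (7.12 ± 0.90 SE, adjusted p = 1.34e-05), and Cdca8 of the same complex from 1.62, 0.48 and 0 to 60.7, 73.9 and 49.4 CPM (6.47 ± 0.68 SE). The checkpoint protein Bub3 also rose (41.5, 48.5 and 39.4 to 111, 93.4 and 112 CPM, 1.29 ± 0.22 SE). Tpx2, which activates Aurka on the spindle, reached 106, 135 and 75.4 CPM from 1.08, 0 and 0.848 CPM (7.27 ± 0.97 SE), and the motor gene Cenpe reached 83.6, 141 and 53.5 from 1.08, 1.44 and 1.7 CPM (5.97 ± 0.73 SE).

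Injured library 3 had the lowest level of many mitotic genes. Cenpf was at 135, 196 and 64.4 CPM, Prc1, which bundles the midzone, at 128, 149 and 73.5 CPM, and the proliferation marker Mki67 at 113, 167 and 51.9 CPM in the 3 injured libraries, against 0.48 to 1.62, 0.424 to 2.88 and 2.4 to 3.39 CPM before injury. Of the replication genes that rose and whose values by library are given above, Mcm2, Mcm5, Mcm6, Cdc6, Cdt1 and Rrm2 were highest in that same library, Rrm1 and Lig1 lowest, and Orc6 neither. The share of counts held by the spindle list was 0.126%, 0.157% and 0.0962% in the injured libraries and 0.0186%, 0.0192% and 0.0209% in the uninjured ones. For licensing and firing genes it was 0.0774%, 0.0806% and 0.089% against 0.0142%, 0.0132% and 0.0161%. With 3 libraries a group, an exact permutation test of such shares cannot go below p = 0.1, the value both lists gave.

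Of genes for cohesin, condensin and sister separation 12 of 17 rose (median 3.01). Condensin compacts chromosomes in mitosis, and cohesin holds sister chromatids together and also shapes loops in resting cells. The condensin genes Smc2 (16.2, 8.17 and 11.9 to 161, 204 and 121 CPM, 3.75 ± 0.33 SE) and Smc4 (56.6, 46.1 and 36 to 355, 443 and 316 CPM, 3.01 ± 0.26 SE) rose, and Ncapg had no count before injury and was at least 61.5-fold higher after. The cohesin core genes Smc1a (208, 234 and 245 and 232, 299 and 205 CPM) and Smc3 (116, 79.8 and 82.7 and 94, 97.8 and 93.5 CPM) overlapped between the groups and did not pass (log2 fold changes 0.10 and 0.03, whose sign turned when 1 library was left out). Topoisomerase II (Top2a), which untangles replicated chromosomes, went from 12.9, 2.88 and 5.09 to 331, 340.1 and 209.8 CPM (5.42 ± 0.61 SE, adjusted p = 8.42e-05). Of chromatin genes of dividing cells 18 of 20 rose, among them the helicase Hells (4.87 ± 0.70 SE), the lamin Lmnb1 (2.38 ± 0.23 SE) and the histone methyltransferase Ezh2 (16.7, 15.9 and 11 to 72.6, 77.7 and 76.3 CPM, 2.38 ± 0.30 SE).

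Genes of mitotic exit and repair rose in part. In the list of anaphase promotion and cytokinesis 10 of 19 rose. The ubiquitin ligase activator Cdc20 had 2 counts before injury and 66.3, 93.7 and 56.3 CPM after, a ratio of 227 (95% counting interval 62.6 to 1877), and its E2 enzyme Ube2c went from 0.539, 0.48 and 0.848 to 99, 101 and 59.7 CPM (6.99 ± 0.61 SE, adjusted p = 3.45e-07). Racgap1, which places the cleavage furrow, reached 70.1, 61.3 and 51.6 CPM, a ratio of 128 (95% counting interval 43.6 to 622). Of DNA repair and replication stress genes 16 of 29 rose, including the nuclease Exo1, with a ratio of 44.8 (95% counting interval 7.77 to 1794). That count was 10 without uninjured library 3 and without injured library 1.

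The promoters of division genes share short motifs, and 8 are shown as examples from genes that rose. Sequences are from RefSeq on GRCm38.p6, from 120 bases before to 39 bases after the annotated start, 5′ to 3′ along the gene. Capitals mark CCAAT or its reverse complement ATTGG (the motif of NF-Y), TTTGAA and also TTCGAA, as found in the cell cycle homology region, on either strand, and the E2F octamers with their reverse complements.
Cdk1: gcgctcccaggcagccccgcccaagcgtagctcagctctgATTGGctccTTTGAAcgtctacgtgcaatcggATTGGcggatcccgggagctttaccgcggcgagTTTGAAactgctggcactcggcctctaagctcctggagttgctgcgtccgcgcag
Ccnb1: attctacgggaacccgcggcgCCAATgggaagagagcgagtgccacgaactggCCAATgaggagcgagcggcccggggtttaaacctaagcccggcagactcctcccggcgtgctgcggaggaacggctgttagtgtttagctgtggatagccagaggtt
Ube2c: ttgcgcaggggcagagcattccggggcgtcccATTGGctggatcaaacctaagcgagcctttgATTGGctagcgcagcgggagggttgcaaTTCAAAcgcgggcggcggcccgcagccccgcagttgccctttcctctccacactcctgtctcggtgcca
Cdca3: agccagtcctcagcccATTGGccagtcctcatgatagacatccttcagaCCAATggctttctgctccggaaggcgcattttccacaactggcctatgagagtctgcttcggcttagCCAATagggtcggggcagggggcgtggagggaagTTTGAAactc
Plk1: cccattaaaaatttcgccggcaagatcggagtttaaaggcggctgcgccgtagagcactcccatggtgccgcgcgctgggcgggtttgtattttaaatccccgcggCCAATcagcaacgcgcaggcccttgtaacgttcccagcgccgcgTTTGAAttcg
Top2a: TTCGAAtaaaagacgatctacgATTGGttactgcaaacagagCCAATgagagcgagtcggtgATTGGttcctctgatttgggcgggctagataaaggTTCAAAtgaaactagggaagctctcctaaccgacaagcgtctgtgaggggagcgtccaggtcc
Mcm6: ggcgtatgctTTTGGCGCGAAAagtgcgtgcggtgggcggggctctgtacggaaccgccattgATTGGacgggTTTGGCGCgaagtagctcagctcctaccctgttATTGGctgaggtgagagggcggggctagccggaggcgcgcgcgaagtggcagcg
Cdt1: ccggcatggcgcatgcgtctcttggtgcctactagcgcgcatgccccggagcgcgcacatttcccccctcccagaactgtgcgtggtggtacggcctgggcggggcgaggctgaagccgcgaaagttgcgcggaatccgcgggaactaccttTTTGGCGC
They lie at chr10:69352873-69353032 (minus strand), chr13:100786447-100786606 (minus strand), chr2:164769809-164769968 (plus strand), chr6:124830056-124830215 (plus strand), chr7:122159315-122159474 (plus strand), chr11:99024150-99024309 (minus strand), chr1:128359666-128359825 (minus strand) and chr8:122567895-122568054 (plus strand).

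Over the full table of 300-base windows (250 before to 50 after the start), searched on both strands, CCAAT was in 65.1% of 175 promoter windows of division genes that rose (155 genes with an entry) and in 37.4% of all 32851 windows. TTTGAA or TTCGAA was in 67.8% of 90 windows of mitosis genes that rose, against 19.2% of all. The E2F octamers searched were TTTCGCGC, its variant TTTGGCGC, the variant TTTCCCGC, and lastly TTTGCCGC. One of them was in 30.6% of 36 windows of replication genes that rose, against 2.26% of all. In all genes tested the 3 shares were 37.4%, 14.3% and 3.93% of 10989 windows. In genes that rose outside the division lists they were 38.9%, 19.3% and 4.31%. In metabolic genes that fell they were 50.4%, 17.4% and 0.847% of 236 windows, so CCAAT was above the share of all windows there too, as it was in all genes that fell (42%). The TEAD motif GGAATG was in 12% of windows of division genes that rose, in 12.1% of those of all genes tested and in 14.7% of all. A match is a description of these letters, not of binding.

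**Figure D2:**
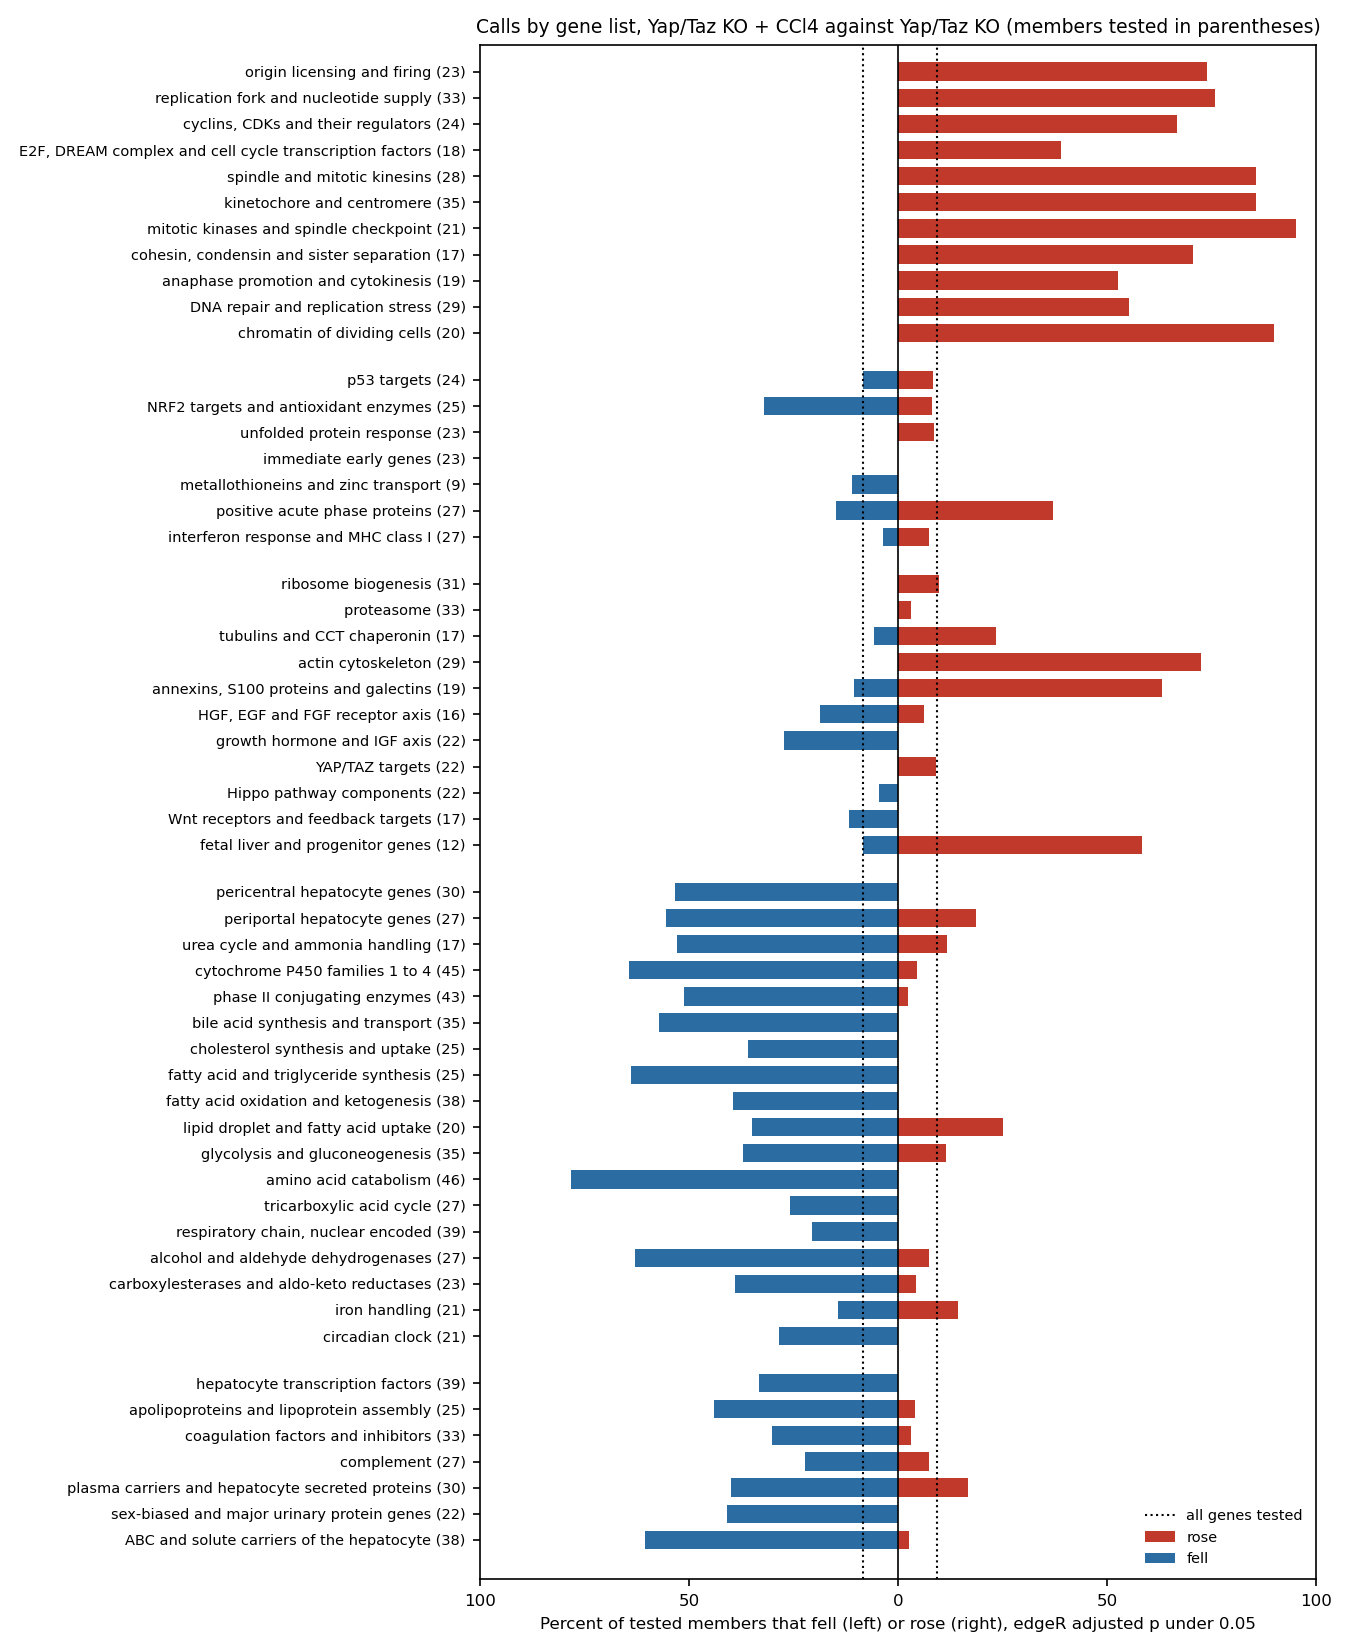
Percent of tested members of each gene list that rose (red, right) or fell (blue, left) in Yap/Taz KO + CCl4 against Yap/Taz KO, with the number of members tested in parentheses and dotted lines at the 9.4% and 8.35% of all tested genes that rose or fell. Division lists lie wholly to the right, and most metabolic lists to the left.

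Hepatocyte metabolism moved the other way. Of 497 tested members of 18 metabolic lists 227 (45.7%) fell and 23 rose, against 8.35% of all genes that fell, and the median was -0.80. The falls numbered 139 with library totals and 151 without injured library 1. Amino acid breakdown was the most uniform of these lists by count. 36 of its 46 tested members fell and none rose (median -1.40). Mat1a, which makes the methyl donor S-adenosylmethionine, was at 6562, 13697 and 12051 CPM before and 1335, 1167 and 1638 CPM after injury (-2.96 ± 0.31 SE, adjusted p = 3.46e-05). Gnmt, which uses up that donor, was at 3169, 6826 and 2906 and 532, 476 and 763 CPM and fell by 2.87 ± 0.36 SE. The list held 2.22%, 3.57% and 3.08% of counts before and 0.822%, 0.815% and 1.12% after injury. Sardh, which breaks down sarcosine, fell by 2.37 ± 0.21 SE, the cysteine dioxygenase gene Cdo1 fell by 2.27 ± 0.21 SE and the transaminase gene Got1 fell by 2.14 ± 0.30 SE. Glud1, which releases ammonia from glutamate, was level at 1452, 1561 and 1615 and 1486, 1519.5 and 1375 CPM.

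Ammonia handling changed along with it, with 9 of 17 falling and 2 rising. Glul, the glutamine synthetase of the hepatocytes next to the central vein, went from 1421, 1266 and 1552 to 114, 111 and 105 CPM (-3.68 ± 0.28 SE, adjusted p = 3.48e-06). The glutamate transporter gene Slc1a2, of the same cells, went from 81.4, 149 and 121 to 0.629, 2.2 and 0.313 CPM (-6.75 ± 0.70 SE). In bulk libraries such as these, fewer cells of a type and less RNA per cell cannot be told apart. The urea cycle enzymes of the periportal zone were not alike. Ass1 went from 518, 987 and 595 to 136, 122 and 278 CPM (-1.97 ± 0.33 SE) and Otc from 609.8, 663 and 473 to 141, 127 and 179.5 CPM (-1.96 ± 0.22 SE). Arg1 was at 1828, 3464 and 3218 and 1490.3, 1513 and 2902 CPM and Cps1 at 2703, 2506 and 2165 and 982, 1186 and 1734 CPM, and neither passed (adjusted p = 0.331 and 0.075), although Cps1 passed in the fit of only the 6 knockout samples (adjusted p = 0.0161), with DESeq2 (0.0485) and without the low-count filter (0.00202). One of the list's rises was Aldh18a1, with a ratio of 23.4 (95% counting interval 6.24 to 197), which acts in the making of proline and ornithine from glutamate. By zone, 16 of 30 pericentral genes fell and none rose (1 with library totals; median -1.17), and 15 of 27 periportal genes fell and 5 rose (median -0.99). Periportal rises numbered 3 without uninjured library 2 and without injured library 2.

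Drug and steroid metabolism fell in both of its phases. Among cytochrome P450 genes of families 1 to 4, 29 of 45 fell and 2 rose (median -1.39). Cyp2e1, the enzyme that activates CCl4, went from 2088, 2106 and 1561 to 225, 276 and 140.4 CPM (-3.17 ± 0.40 SE, adjusted p = 1.79e-04). Cyp1a2, also pericentral, went from 1258, 1352 and 1522 to 94.6, 308 and 342 CPM (-2.47 ± 0.50 SE), with injured library 1 the lowest. The periportal Cyp2f2 fell from 885, 1143 and 810.0 to 80.8, 75.2 and 115 CPM (-3.39 ± 0.33 SE). The Cyp2c cluster ranged widely: Cyp2c38 (161, 111 and 117 to 2.51, 3.77 and 2.81 CPM), Cyp2c50 (657, 596 and 351 to 24.2, 23.6 and 29.7 CPM) and Cyp2c37 (456, 469 and 139.5 to 21.4, 18.6 and 20.6 CPM) fell by 5.40, 4.37 and 4.13, and Cyp2c29 fell by 1.79 ± 0.33 SE. Near-identical paralogs of this cluster can share 3' tags, so values of single members are uncertain. The rises were Cyp2c55 and Cyp4a31. Cyp2c55 was at 2.16, 0.48 and 0 CPM before and 3.46, 2.2 and 63.8 CPM after, so its rise (4.75 ± 1.55 SE, adjusted p = 0.0227) rested on injured library 3, and its adjusted p was 0.0613 with the replicate number as a block, 0.249 with limma-voom, 0.0862 without uninjured library 2, 0.0847 without uninjured library 3 and 0.37 without injured library 3. Cyp4a31 (12.9, 25.9 and 14.4 to 45, 46.2 and 31.3 CPM, 1.20 ± 0.35 SE) had an adjusted p of 0.0946 without uninjured library 1, 0.105 without uninjured library 3, 0.0912 without injured library 1 and 0.0888 without injured library 2. The fatty acid hydroxylase Cyp4a10 fell (336, 463 and 243 to 44.3, 74.6 and 43.8 CPM, -2.68 ± 0.38 SE).

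Of the conjugating enzymes of phase II, 22 of 43 fell and 1 rose. The count that fell was 13 with library totals, without uninjured library 2 and without injured library 1. The glutathione transferase Gsta2 fell by 3.52 ± 0.39 SE and Gstt3 by 2.34 ± 0.30 SE on the log2 scale, while Gstp1, the form that rises in proliferating liver lesions, rose from 6.47, 8.65 and 3.82 to 11.9, 33.7 and 52.5 CPM (2.38 ± 0.52 SE, adjusted p = 0.00568). The sulfotransferase Sult3a1 went from 40.4, 131 and 116 to 2.2, 9.44 and 1.88 CPM (-4.40 ± 0.56 SE). Sult2a1 was at 518, 584 and 294 CPM before and 123, 75.2 and 0.625 CPM after injury, so its injured libraries were far apart, and it did not pass (adjusted p = 0.119), although it passed with limma-voom (0.0362) and without the low-count filter (9.11e-21). Among carboxylesterases and aldo-keto reductases 9 of 23 fell, with Ces3b down from 311, 389.6 and 419 to 10.7, 21.7 and 13.1 CPM (-4.62 ± 0.26 SE), and the count was 5 with library totals and 4 without injured library 1. Akr1c18, which inactivates progesterone, rose in that list from 3 counts to 36.1, 40.6 and 44.1 CPM, a ratio of 84.5 (95% counting interval 28.7 to 412). Bile acid genes had 20 falls among 35, including the exporter Abcb11 (735, 709 and 589.9 to 206, 171 and 205 CPM, -1.80 ± 0.22 SE) and Slc27a5, which activates bile acids (821, 986 and 651 to 132, 95 and 109 CPM). That count was 13 with library totals and without injured library 1. The antioxidant enzymes Gpx1 (3109.5, 3343 and 3078 to 1430.2, 1119 and 1593 CPM, -1.20 ± 0.24 SE) and Prdx6 (-1.39 ± 0.21 SE) fell too. Their list was mixed: of 25 tested NRF2 targets and antioxidant enzymes 8 fell and 2 rose (median -0.04). With library totals 4 fell and 5 rose. The falls numbered 5 without uninjured library 2 and without injured library 1 or 2.

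Genes of sugar metabolism moved in both directions. Hepatocytes release glucose through glucose-6-phosphatase (G6pc), and dividing or injured cells use the muscle type pyruvate kinase Pkm and lactate dehydrogenase A (Ldha). G6pc went from 924, 525 and 602 to 224, 151 and 107 CPM (-2.09 ± 0.31 SE, adjusted p = 4.42e-04). Against this, Pkm went from 4.85, 2.4 and 5.09 to 74.2, 49.1 and 43.5 CPM (3.74 ± 0.45 SE, adjusted p = 5.66e-05) and Ldha from 229, 209 and 198 to 459.6, 516 and 799 CPM (1.48 ± 0.23 SE). The groups did not overlap in any of these 3 genes. Pck1, the first enzyme of gluconeogenesis, was at 2564, 3585 and 1006 and 346, 562 and 1070.1 CPM and overlapped, and it fell by 1.85 ± 0.42 SE in the fit (adjusted p = 0.00829). Over the whole list 13 of 35 fell and 4 rose, where the rises numbered 2 without uninjured library 2 or 3 and without injured library 1 or 3. The kinases Pdk1 (-1.79 ± 0.29 SE) and Pdk2 (-2.10 ± 0.26 SE), which inhibit pyruvate dehydrogenase, fell together.

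**Figure D3:**
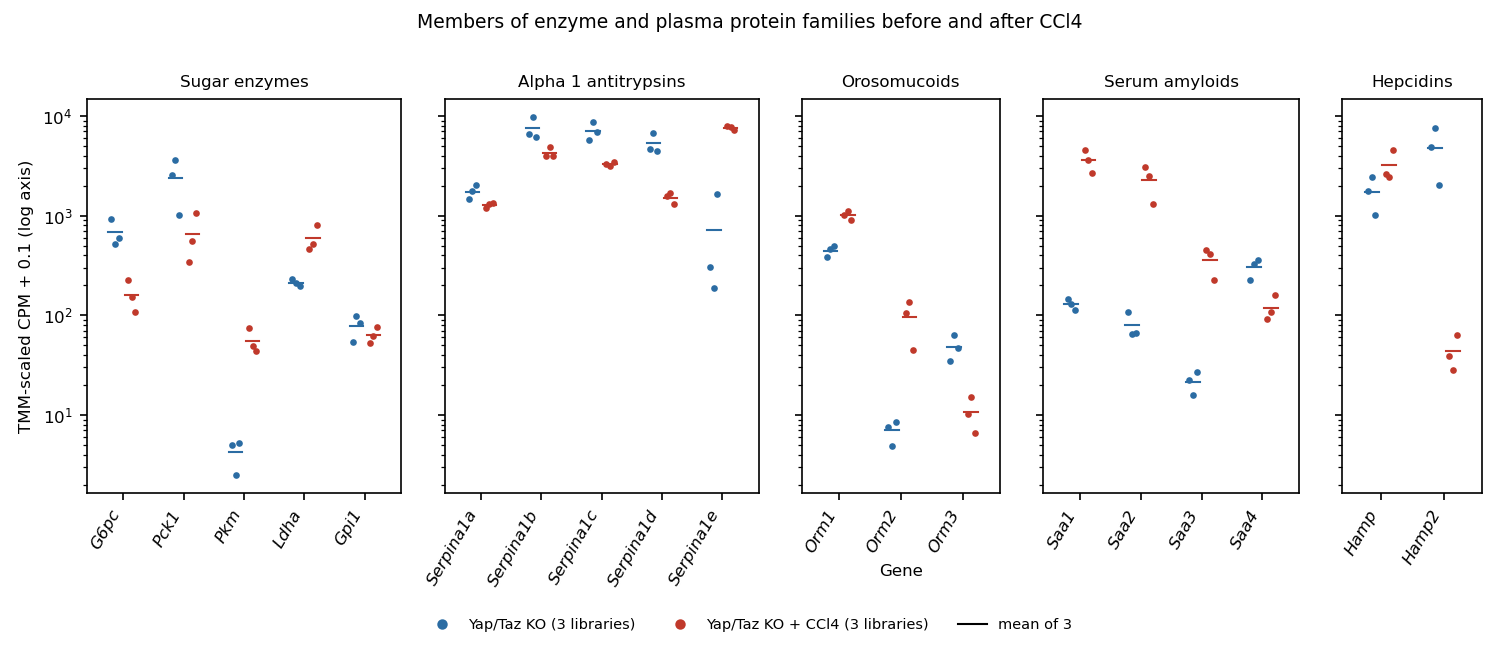
Levels of enzymes of sugar metabolism and of members of plasma protein families in each Yap/Taz KO library before (blue) and after CCl4 (red), as TMM-scaled CPM plus 0.1 on a log axis, where points are libraries and short lines are means of 3. Members of 1 family move in opposite directions, as with Serpina1d and Serpina1e or Orm2 and Orm3.

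Lipid synthesis fell, and genes of lipid droplets and fatty acid uptake moved both ways. Of fatty acid and triglyceride synthesis genes 16 of 25 fell and none rose (median -1.20). The count was 10 with library totals and without injured library 1 and 9 without uninjured library 2. Scd1, the desaturase that makes monounsaturated fat, went from 5948, 7736 and 6829 to 854, 489 and 605 CPM (-3.40 ± 0.33 SE, adjusted p = 2.11e-05), and fatty acid synthase (Fasn) from 301, 405 and 885 to 139, 90.9 and 127 CPM (-2.16 ± 0.36 SE). Acacb, whose product restrains fat burning, went from 77.1, 73 and 54.7 to 7.54, 9.75 and 7.19 CPM (-3.06 ± 0.33 SE). Of lipid droplet and uptake genes 5 of 20 rose and 7 fell (median -0.20). The rises numbered 3 without uninjured library 1 or 3 and without injured library 1 or 2, and the falls 3 with library totals and 4 without uninjured library 2 and without injured library 1. Hepatic lipase (Lipc) fell from 309, 221 and 219 to 50.9, 40.3 and 52.2 CPM (-2.38 ± 0.23 SE), and Slc27a5, given above, is a member too. Among the rises, lipoprotein lipase (Lpl), which adult hepatocytes barely make, went from 143, 74.5 and 90.3 to 792, 819 and 638 CPM (2.87 ± 0.47 SE, adjusted p = 0.00127). The fatty acid receptor Cd36 went from 36.1, 21.6 and 39.4 to 114, 84 and 81 CPM (1.52 ± 0.33 SE) and Hilpda, which blocks lipid droplet breakdown, from 5.39, 10.6 and 6.79 to 35.8, 20.1 and 21.9 CPM (1.76 ± 0.40 SE). Macrophages also express Lpl and Cd36, and macrophage markers rose in the same libraries, and the part of these cells in both rises was not tested. Of fatty acid oxidation genes 15 of 38 fell, including Acadm of mitochondria (425, 550.1 and 385 to 138, 207 and 197 CPM, -1.32 ± 0.24 SE). That count was 8 with library totals and without injured library 2, 7 without injured library 1 and 9 without uninjured library 2. In the cholesterol list 9 of 25 fell, with Tm7sf2 at -1.85 ± 0.35 SE, and the count was 2 with library totals, 5 without injured library 1 or 2 and 4 without uninjured library 3 and without injured library 3.

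Secreted proteins and hepatocyte identity genes fell more often than they rose, 82 against 10 of 208 tested members (median -0.70). Apoe was at 27717, 38060.0 and 22150.0 CPM before and 10785, 8696 and 10061 CPM after injury (-1.57 ± 0.24 SE, adjusted p = 4.57e-04), and Apoa2 at 14773, 19546 and 14030.0 and 4139, 3613 and 3839 CPM (-2.06 ± 0.24 SE). Apoa1, of the same HDL particle, did not pass (12225, 17113 and 14351 and 13449, 11045 and 12680.0 CPM, log2 fold change -0.23, and 0.14 with library totals). The apolipoprotein list held 6.19%, 8.25% and 6.82% of counts before and 4.32%, 3.85% and 4.36% after injury. Albumin (Alb), the most abundant plasma protein, held 7.31% ± 0.607 of counts before and 5.41% ± 0.735 after (SD, n = 3 each). Its fall of 0.82 ± 0.24 SE (adjusted p = 0.0311) did not hold in every fit: the adjusted p was 0.131 with library totals, 0.0961 without uninjured library 1, 0.0889 without uninjured library 2, 0.139 without injured library 2 and 0.0888 without injured library 3. The corticosteroid carrier Serpina6 went from 471, 383 and 293 to 41.2, 22.6 and 28.5 CPM (-3.63 ± 0.24 SE) and the thyroxine carrier Serpina7 the other way, from 5.93, 4.8 and 1.7 to 33, 35.5 and 15 CPM (2.77 ± 0.47 SE). Antithrombin (Serpinc1) fell by 1.23 ± 0.20 SE, coagulation factor F12 by 1.22 ± 0.20 SE and the lectin Mbl2 by 1.29 ± 0.24 SE on the log2 scale. Of 33 coagulation genes 10 fell and 1 rose (6 with library totals). Of 27 complement genes 6 fell and 2 rose (3 and 5 with library totals). The coagulation list held 5.16%, 4.99% and 6.01% of counts before and 6.85%, 6.9% and 6.75% after injury. Without the 50 most abundant genes that difference was -0.445 percentage points. The iron hormone genes parted. Hamp2 fell from 4873, 7594 and 2018 to 39, 28 and 63.5 CPM (-6.79 ± 0.41 SE), while Hamp was at 1771, 2416 and 1009 and 2589.8, 2449 and 4531 CPM and did not pass (adjusted p = 0.0802), although it passed without uninjured library 2 (0.0435), with library totals (0.0106), with DESeq2 (0.037) and without the low-count filter (0.00247).

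Acute phase proteins, which the liver secretes in inflammation, rose in part: 10 of 27 rose, 4 fell and the median was 0.36. Their joint share of counts was 2.48%, 2.34% and 2.79% before and 5.91%, 5.67% and 4.85% after injury. The serum amyloid genes Saa1 (146, 129.7 and 114 to 4595, 3649 and 2693 CPM, 4.81 ± 0.32 SE, adjusted p = 1.67e-06) and Saa2 (108, 65.3 and 65.7 to 3086, 2475 and 1313 CPM, 4.85 ± 0.40 SE) rose, and so did Lcn2, which binds bacterial siderophores (22.1, 24 and 20.8 to 609, 982 and 553 CPM, 5.00 ± 0.26 SE, adjusted p = 3.45e-07). Haemopexin (Hpx), the carrier of haem, went from 3804, 3797 and 3085 to 12010.0, 8524 and 9954 CPM (1.51 ± 0.24 SE) and haptoglobin (Hp), the carrier of haemoglobin, from 1677, 2637 and 1876 to 5519, 4819 and 3124 CPM (1.12 ± 0.25 SE). Fgl1, a fibrinogen-like protein made by regenerating liver, rose by 2.06 ± 0.29 SE. The fibrinogen chain genes Fga (3903, 2682 and 4191 and 3379.7, 4571 and 3941 CPM) and Fgb (9620.3, 9544 and 9046 and 11659, 11355 and 10105 CPM) did not pass, with log2 fold changes of 0.14 and 0.23. The sign of Fga turned when uninjured library 2 was left out (-0.03), and Fgb passed with library totals (0.60, adjusted p = 0.0199). Crp (622, 479 and 589.9 to 209, 235 and 175 CPM, -1.45 ± 0.20 SE) and Lbp (-1.22 ± 0.23 SE) fell, as did the constitutive Saa4 (-1.36 ± 0.35 SE), whose adjusted p was 0.0643 with library totals, 0.0522 without uninjured library 2, 0.06 without uninjured library 3, 0.0788 without injured library 1 and 0.0622 without injured library 2.

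Near-identical copies within these families diverged. Of the α1-antitrypsin genes, Serpina1e went from 302, 187 and 1644 to 7961, 7743 and 7224 CPM (3.42 ± 0.68 SE, adjusted p = 0.00535), with uninjured library 3 well above the other uninjured ones. Serpina1d went from 4711, 6797 and 4472 to 1568, 1675 and 1302 CPM (-1.81 ± 0.23 SE) and Serpina1c fell by 1.10 ± 0.24 SE, while Serpina1a did not pass (1460.1, 1764 and 2013 and 1202, 1323 and 1332 CPM). Of the orosomucoid genes, Orm2 went from 7.55, 4.8 and 8.48 to 105, 137 and 44.4 CPM (3.77 ± 0.48 SE) and Orm3 from 34.5, 63.4 and 47.1 to 10.1, 15.1 and 6.57 CPM (-2.19 ± 0.45 SE). The counting could split or misassign tags between such copies, so the level of a single copy is uncertain.

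Genes of the actin cytoskeleton rose together. Of these genes, which give cells shape, adhesion and movement, 21 of 29 rose and none fell (median 1.32), and the count was 13 without uninjured library 2. Actb went from 2662, 2028 and 2984 to 6891, 5913 and 6164 CPM (1.30 ± 0.21 SE, adjusted p = 7.66e-04), and the list held 0.397%, 0.276% and 0.44% of counts before and 1.29%, 1.17% and 1.19% after. Tagln2 went from 56.6, 46.6 and 58.5 to 275, 253 and 317 CPM (2.38 ± 0.36 SE), the capping protein gene Capg from 6.47, 0.961 and 2.12 to 51.2, 35.9 and 33.1 CPM (3.68 ± 0.50 SE) and Arpc2, of the complex that branches actin, from 332, 252 and 315 to 554, 523 and 614 CPM (0.91 ± 0.18 SE). Of tubulin and CCT chaperonin genes 4 of 17 rose and 1 fell (median 0.36). The rises numbered 8 with library totals, and the falls 0 with library totals, without uninjured library 3 and without injured library 1, 2 or 3 and 2 in the fit of only the 6 Yap/Taz KO samples. The tubulin genes Tuba1b (2.55 ± 0.34 SE), Tubb5 (2.43 ± 0.27 SE) and Tubb6 (9.17, 4.8 and 11.9 to 114, 143 and 104 CPM, 3.79 ± 0.44 SE) rose, and Tuba4a fell (267, 314 and 497 to 204, 172 and 208 CPM, -0.88 ± 0.26 SE, adjusted p = 0.0276), although its adjusted p was 0.179 with library totals, 0.149 without uninjured library 3, 0.0713 without injured library 1, 0.0983 without injured library 2 and 0.0593 without injured library 3. Of annexins, S100 proteins and galectins 12 of 19 rose (6 without uninjured library 2), led by galectin 3 (Lgals3, 19.4, 7.69 and 8.91 to 559, 425 and 346 CPM, 5.22 ± 0.44 SE), S100a4 (4.68 ± 0.51 SE) and S100a6 (3.75 ± 0.46 SE). All of these genes are also expressed by macrophages or fibroblasts.

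Some markers of other cell types were higher in the injured libraries. Of 19 macrophage and Kupffer cell markers 8 rose, and their summed share went from 0.0302% to 0.14% of counts before to 0.32% to 0.453% after injury. That count was 14 with library totals, with limma-voom, in the fit of only the 6 Yap/Taz KO samples, with the replicate number as a block and without uninjured library 1, 15 without the low-count filter, 5 without uninjured library 3 and without injured library 1 and 4 without uninjured library 2. Cd68 went from 17.3, 4.8 and 11.9 to 162, 132 and 134 CPM (3.66 ± 0.56 SE) and Lyz2 from 130.5, 27.9 and 78.5 to 669, 574 and 499 CPM (2.88 ± 0.55 SE). Clec4f, the defining marker of resident Kupffer cells, was level (135, 25 and 62.8 and 94.3, 56.9 and 64.1 CPM, log2 fold change -0.05, of either sign under the alternatives). Of 12 monocyte and neutrophil markers 9 rose, including Ccr2 (4.31, 1.44 and 0.848 to 43.4, 33 and 35.3 CPM, 4.12 ± 0.59 SE) and the defining marker Ly6c2 (1.62, 0.961 and 0.848 to 16.7, 11.3 and 7.19 CPM). Their share went from 0.066% to 0.0773% before to 0.104% to 0.145% after injury, and the count was 5 without uninjured library 2. Of 19 stellate cell and fibroblast markers 10 rose, including Col1a1 (12.9, 1.92 and 10.6 to 234, 214 and 134 CPM, 4.51 ± 0.74 SE) and Timp1, with a ratio of 163 (95% counting interval 28.9 to 6450.1), while Dcn was at 225, 161 and 453 and 434, 389.8 and 538 CPM and did not pass. The share of that list was 0.0318% to 0.0979% before and 0.213% to 0.232% after. Of 17 sinusoidal endothelial markers 1 fell (0 with library totals, without uninjured library 1 or 3 and without injured library 1, 2 or 3) and none rose (2 without the low-count filter and in the fit of only the 6 knockout samples, 1 with library totals, DESeq2, limma-voom and without uninjured library 1), with Stab2 at 60.9, 20.7 and 56.4 and 65.1, 52.5 and 34.4 CPM. The platelet marker Pf4, which some macrophages also express, rose from 0.539, 0.961 and 1.27 to 42.7, 37.1 and 28.5 CPM (5.18 ± 0.97 SE). The defining markers of T cells (Cd3e), B cells (Cd79a), cholangiocytes (Krt19) and mesothelium (Msln) did not pass the low-count filter. The summed macrophage, monocyte and stellate markers were higher in the same 3 libraries as the changes described above, and their part in those changes was not tested.

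**Figure D4:**
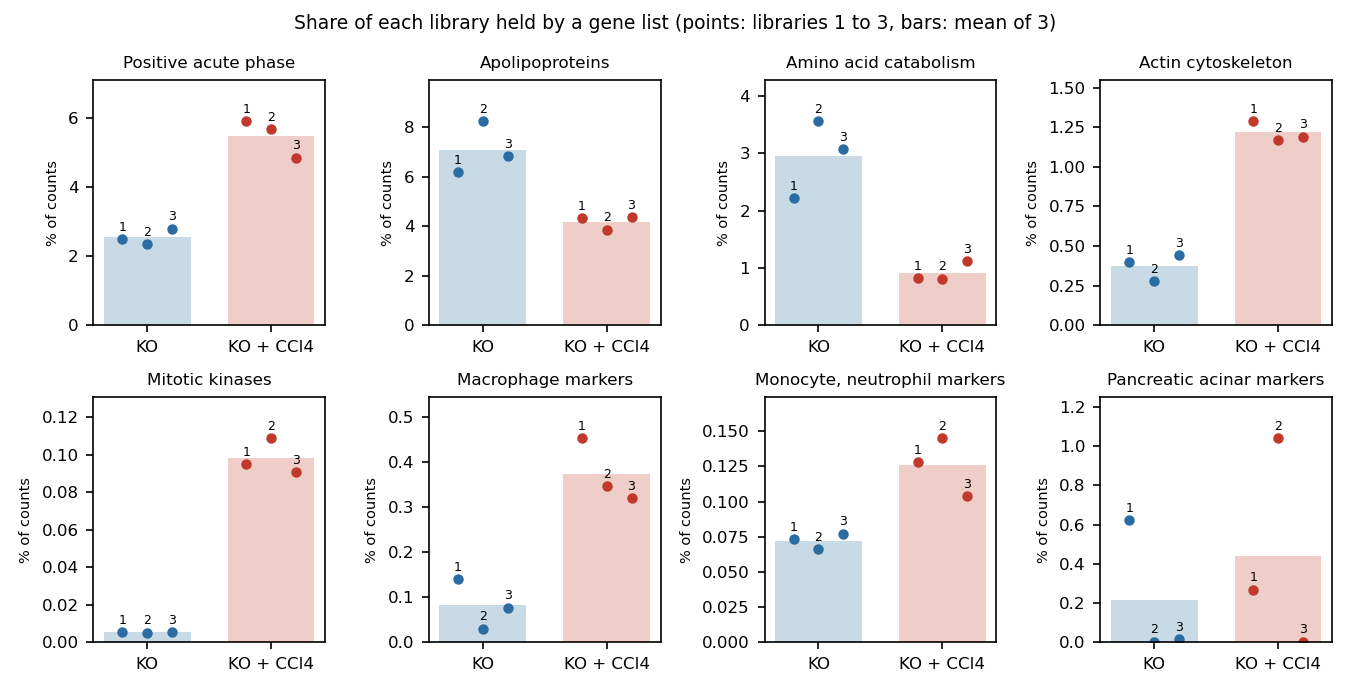
Share of each library's counts held by all members of a gene list, in percent, with numbered points for libraries 1 to 3 and bars for the mean of 3, in Yap/Taz KO (blue) and Yap/Taz KO + CCl4 (red). Macrophage markers are higher in each injured library, and the pancreatic acinar share is high in uninjured library 1 and injured libraries 1 and 2.

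Regulators of hepatocyte identity fell in part, 13 of 39, and none rose (median -0.69). The count was 5 with library totals, 7 without injured library 1, 2 or 3 and 6 without uninjured library 2. Cebpa, which holds hepatocytes in quiescence, went from 254, 495 and 429 to 139.9, 149 and 140.1 CPM (-1.46 ± 0.25 SE, adjusted p = 0.00106) and the nuclear receptor Nr5a2 from 127, 155 and 145 to 56.6, 60.7 and 48.8 CPM (-1.36 ± 0.26 SE). Ppara, the receptor that turns on fat burning, went from 181, 368 and 237 to 88.3, 114 and 88.2 CPM (-1.44 ± 0.27 SE). Hnf4a, at 377, 515 and 304 and 226, 215 and 286 CPM, missed the threshold (adjusted p = 0.0505) and passed with DESeq2 (0.031), with limma-voom (0.0385) and without uninjured library 3 (0.0342). Of the growth hormone and IGF axis 6 of 22 fell, including the receptor Ghr (512, 447 and 429 to 175, 183 and 149 CPM, -1.45 ± 0.20 SE), and the count was 3 with library totals, without uninjured library 1 and without injured library 1 or 2. Igf1 did not pass (1394, 860.5 and 1281 and 926, 894 and 806 CPM). The mitogen Hgf, made by non-parenchymal cells, rose from 3.24, 1.44 and 1.7 to 14.1, 8.49 and 7.19 CPM (2.22 ± 0.53 SE). It was the only rise among 16 tested members of the HGF, EGF and FGF receptor axis, of which 3 fell (5 with the replicate number as a block). The median of that list was -0.40.

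Few targets of YAP and TAZ passed the test. Of 22 tested members of the target list 2 (9.09%) rose, close to the 9.4% of all genes, and the median was -0.15. The share of counts held by the whole list was 0.0351%, 0.0214% and 0.0368% before and 0.0534%, 0.0549% and 0.0409% after injury, without overlap (exact two-sided permutation p = 0.1, the smallest possible). The share uses unscaled totals and the median TMM scaling, so their signs cannot be set against each other. With library totals the median of all tested genes moved from 0.03 to 0.40. The 2 members that rose were Myof, of membrane repair (9.71, 2.4 and 6.36 to 48.7, 67.3 and 27.5 CPM, 2.96 ± 0.53 SE, adjusted p = 0.00138), and the receptor tyrosine kinase Axl (33.4, 6.25 and 22.5 to 103, 76.4 and 63.2 CPM, 1.97 ± 0.56 SE, adjusted p = 0.0266). Axl, which macrophages also express, had an adjusted p of 0.097 without uninjured library 2, 0.0675 without uninjured library 3, 0.0935 without injured library 1 and 0.0577 without injured library 2. The matricellular genes Ccn1 (9.71, 6.73 and 2.12 and 6.92, 5.98 and 13.1 CPM) and Ccn2 (4.31, 7.69 and 0.848 and 7.23, 12.9 and 18.8 CPM) overlapped between the groups and did not pass. Ankrd1 was at 2.16, 1.44 and 5.09 and 2.2, 3.15 and 0.313 CPM and Amotl2 at 12.4, 17.3 and 22.1 and 17.9, 9.12 and 12.2 CPM. Ccn2 passed without the low-count filter (adjusted p = 0.00778). Of Wnt receptors and feedback targets 2 of 17 fell, near the 8.35% of all genes that fell. That count was 1 with library totals, without uninjured library 1 or 2 and without injured library 2 or 3. Fzd8, at 19.9, 15.4 and 30.5 and 3.14, 5.98 and 4.69 CPM, fell, and Axin2 (4.85, 7.21 and 4.24 and 2.51, 2.83 and 2.19 CPM) did not pass. Of 12 tested fetal liver and progenitor genes 7 rose, including Afp (1.08, 0.961 and 0 to 10.7, 14.8 and 25 CPM, 4.61 ± 1.25 SE, adjusted p = 0.00489, and 0.114 with limma-voom), Spp1 (16.7, 13.5 and 21.2 to 113, 168 and 46.6 CPM, 2.67 ± 0.43 SE) and Cd44 (29.1, 7.21 and 12.7 to 111, 137 and 86.3 CPM, 2.78 ± 0.49 SE). That count was 4 without uninjured library 2 or 3 and without injured library 1 or 3. Macrophage markers rose in the same libraries, and the part of other cell types in these 7 rises was not tested. Sox9 did not pass (19.4, 29.3 and 45.4 and 30.2, 46.2 and 42.8 CPM).

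Some groups that answer acute stress, and some of growth, rose in a share near or below that of all genes at 48 h. Of 23 tested immediate early genes none passed in edgeR with all libraries, and Jun (332, 371 and 619 and 304, 463 and 518 CPM) and Fos (252, 265 and 525 and 196, 282 and 267 CPM) overlapped between the groups. Of these 23, 2 rose with library totals, 1 with DESeq2, 1 (Myc) without uninjured library 1 and 1 (Btg2) without uninjured library 3, 1 (Klf4) fell in the fit of only the 6 knockout samples, and 2 rose and 2 fell without the low-count filter. At an unadjusted p under 0.05 there were 3 genes, Myc, Klf4 and Btg2. Of 33 proteasome genes 1 rose and of 31 ribosome biogenesis genes 3 (9 with library totals), the latter near the 9.4% of all genes that rose. The unfolded protein response had 2 rises among 23, also near that share. Among p53 targets 2 of 24 rose and 2 fell, near the 9.4% and 8.35% of all genes. Such small counts depended on single libraries: the proteasome count was 3 with library totals and 0 without uninjured library 1, 2 or 3 and without injured library 1, 2 or 3, the unfolded protein response count 5 with library totals, 1 without injured library 1 or 2, 0 without uninjured library 1 or 2 and without injured library 3 and 4 without uninjured library 3, and the p53 rises 4 with library totals, without the low-count filter and in the fit of only the 6 Yap/Taz KO samples and 1 without uninjured library 1 and without injured library 1 or 2 and falls 0 with library totals and without injured library 1 and 1 without uninjured library 3 and without injured library 2 or 3. The metallothionein genes Mt1 (777, 674 and 519.5 and 692, 926 and 1129.5 CPM) and Mt2 (207, 221 and 144 and 224, 409.6 and 508 CPM) did not pass either (adjusted p = 0.617 and 0.389), although Mt2 passed in the fit of only the 6 knockout samples (0.0324) and without the low-count filter (0.00144).

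The same contrast in ctrl hepatocytes gave 1137 rises and 1291 falls. Of the 1913 genes called in the knockouts, 1337 were called in ctrl (69.9% of knockout calls and 55.1% of ctrl calls), 1336 of them in the same direction, and 1840 had the same sign. The difference between the responses, tested as an interaction in the same edgeR fit, passed for no gene after adjustment (smallest adjusted p = 0.49), with 874 genes (8.11%) at an unadjusted p under 0.05. DESeq2 called 12 genes, limma-voom 0 and edgeR without the low-count filter 115. A p that misses the threshold does not show that the responses were alike. Side by side, the list medians were 5.61 in the knockouts (5.28 with genes at 0 set to their bounds) and 4.94 in ctrl for mitotic kinases. They were -1.40 and -1.88 for amino acid catabolism, -1.39 and -1.99 for P450 genes, and 1.32 and 1.35 for the actin cytoskeleton. Medians of some other lists parted more. They were 0.51 and -0.24 for interferon response and MHC class I genes, and 1.8 and 0.82 for macrophage and Kupffer cell markers. The widest partings were in erythroid markers (0.84 and -2.91, 5 tested) and pancreatic acinar markers (0.32 and -2.79, 13 tested). Of the 267 tested division genes, Ube2c had a log2 fold change of 6.99 in the knockouts and 4.54 in ctrl (difference 2.45, unadjusted p = 0.00103), and Cdca8 6.47 and 3.99 (unadjusted p = 0.00242). Both had few counts before injury in the knockouts, where library depth limits the fold. In the division lists, members at an unadjusted p under 0.05 numbered from 0 of 24 (cyclins) to 6 of 28 (spindle), against 8.11% of all genes. Serpina7 stood at 2.77 and 0.22 (unadjusted p = 9.30e-04), Plac8 of monocytes at 4.26 and 1.26 (unadjusted p = 7.86e-04), and Notum, a Wnt feedback gene of pericentral hepatocytes, at 0.43 and -2.68 (unadjusted p = 5.32e-05). None of these passed after adjustment. Both knockout and ctrl fits share the estimate of spread, not the samples.

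**Figure D5:**
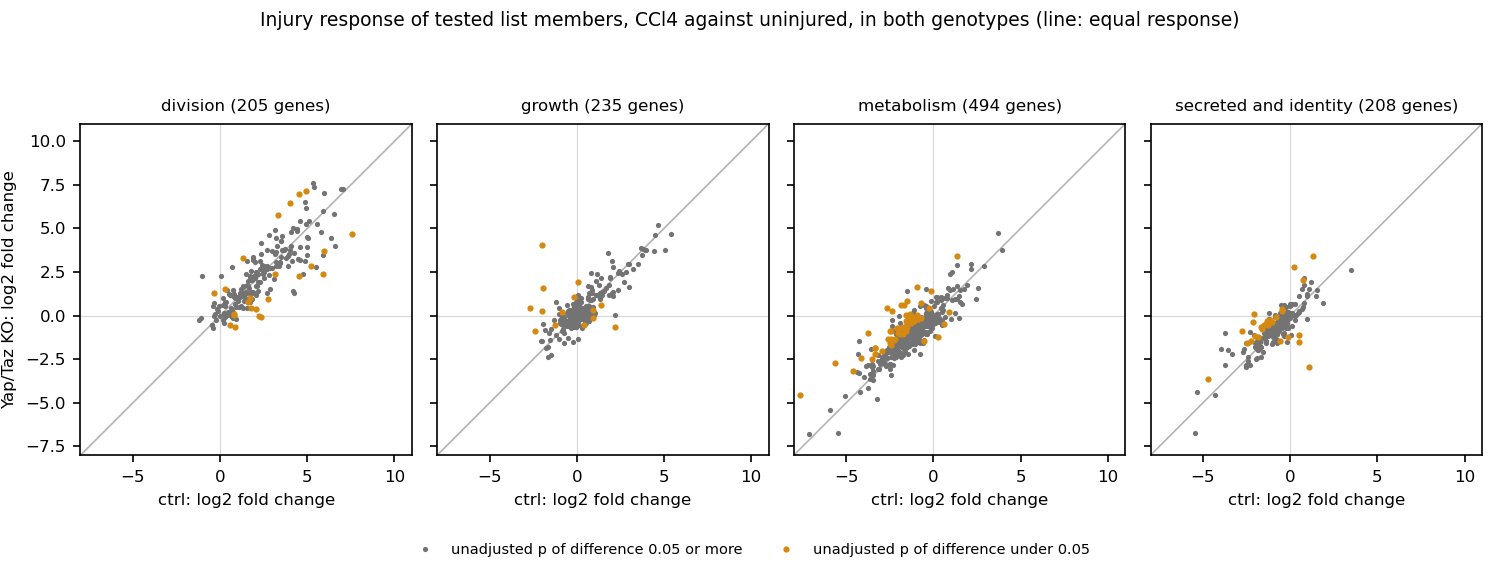
Log2 fold change after CCl4 in Yap/Taz KO (vertical axis) against ctrl (horizontal axis) for tested members of 4 classes of gene lists, leaving out genes with 3 or fewer counts in a knockout group, where the grey line marks an equal response. Most division genes lie at the upper right and most metabolic genes at the lower left in both genotypes, and orange points have an unadjusted p of the difference under 0.05.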

How the data were processed

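RNA from 12 sorted hepatocyte libraries in 4 groups of 3 was read with QuantSeq 3' mRNA-Seq FWD, per the labels' protocols. The deposited table holds whole-number counts per gene symbol that the authors made from the reads, with no normalization. The submitters' processing notes name FastQC, cutadapt, STAR 2.6.1d, mm10 and GRCm38, and leave out the counting tool and its strand setting, so overlapping and antisense genes cannot be told apart. Columns were matched to samples by name, and no per-sample column was left over.

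Counts were fitted with edgeR 4.0.16 (R 4.3.3): TMM factors, filterByExpr (minimum count 10, minimum total 15), all 12 samples with 1 coefficient per group and a shared estimate of the spread, the quasi-likelihood F test and Benjamini-Hochberg adjustment at 0.05 over the 10780 genes tested. The difference from ctrl was tested as an interaction. The fit was tested on simulated data. A gene with 0 counts in a group is given as a bound against a floor of 3 counts over the group, and one with 1 to 3 counts as a ratio with an exact 95% interval, which covers counting error only. Library depth therefore limits the fold of genes near 0 before injury. Shares of counts use unscaled totals and an exact two-sided permutation test.

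The 68 lists (1785 members, 1777 in the table) and the tests were chosen with earlier results of these data known. Genes were named by this rule: in each list the 3 called members with the smallest adjusted p, the 3 with the highest mean CPM and every member called against the list's direction; the 12 largest rises and falls with at least 20 CPM in a group; the 10 most abundant genes; and a fixed set of cell cycle, zonation and injury markers. Aurka, Cdc6, Cdt1, Clec4f, Fasn, Gins2, Ly6c2, Orc4, Orc5, Orc6, Orm2, Serpina1a, Serpina1c, Smc3, Stab2, Klf4 and Btg2 fall outside it and were chosen after their values were seen, as were the 8 promoters shown. Alternatives were RLE factors, library totals, other low-count filters, a replicate block, the 6 knockout samples alone, DESeq2 1.42.0, limma-voom (limma 3.58.1) and leaving out each library. Some genes that the rule would name are not reported here.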

Additional observations from a re-analysis of the deposited data

How the results depend on the processing

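No gene called in the knockouts had the opposite sign under any alternative run. Rises and falls numbered 1013 and 900 in the fit as reported, 1065 and 842 with RLE factors, 1809 and 410 with library totals, 1282 and 984 without the low-count filter, 1006 and 897 with at least 5 CPM in 3 samples, 1226 and 1082 in the 6 knockout samples alone, 1284 and 1004 with DESeq2 and 1015 and 985 with limma-voom. Leaving out 1 knockout library gave 626 to 944 rises and 516 to 777 falls. Division genes that rose numbered 166 to 177 in those fits, against 195 with all libraries. Metabolic genes that fell numbered 151 to 209 against 227, and 139 with library totals. The replicate numbers did not pair the samples: the correlations of deviations were 0.188, -0.152 and 0.075 and 0 of 3 pairs correlated best with each other. With the replicate number as a block 1101 genes rose and 994 fell, and Cps1 (-1.01, adjusted p = 0.0237) and Sult2a1 (-3.55, 0.0369), not called in the fit as reported, passed too. Genes that differed from the ctrl response numbered 115 without the low-count filter, 12 with DESeq2, and 0 in every fit without 1 library. The cause of these changes was not tested.

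Without the 50 most abundant genes the injured minus uninjured share became 1.04 percentage points for acute phase proteins, 0.593 for actin cytoskeleton, 0.15 for mitotic kinases, 0.171 for spindle genes, 0.108 for licensing, -0.382 for apolipoproteins, 0.463 for macrophage, 0.254 for stellate and 0.079 for monocyte markers, as the remaining total is smaller and lists lose their own members among the 50. The acinar difference ranged from -0.0783 (without injured library 2) to 0.441 (without library 3). Within 100 bases before the start, a shorter window, CCAAT was in 50.3% of windows of division genes that rose. TTTGAA or TTCGAA was in 23.3% of those of mitosis genes that rose and the E2F octamers in 8.33% of those of replication genes that rose. In that window the 3 shares were 18.9%, 6.13% and 0.846% of all promoters and 21.7%, 3.98% and 1.38% of those of genes tested.

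Of 188 named genes, 159 kept their direction and call in every alternative. The 10 that changed sign had not been called. Leaving out 1 library gave log2 fold changes down to -1.18 for Ankrd1, -0.46 for Clec4f and -0.35 for Yap1, and up to 0.21 for Smc1a and 0.38 for Stab2. Log2 fold changes turned to 0.14 for Apoa1, 0.32 for Clec4f, 0.29 for Glud1, 0.30 for Jun and 0.27 for Yap1 with library totals, and to 0.22 for Clec4f with the block and 0.25 with limma-voom. Without uninjured library 1 they were 0.70 for Clec4f and 0.23 for Yap1, without library 2 -0.03 for Fga, -0.07 for Smc3 and -0.21 for Stab2, and without library 3 0.07 for Ankrd1, 0.28 for Jun and -0.04 for Smc3. Without injured library 1 they were 0.16 for Jun and -0.07 for Stab2, without library 2 0.10 for Clec4f and -0.06 for Smc1a, and without library 3 0.02 for Clec4f.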

Other observations

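Genes outside the lists, chosen after their values were seen, added to the picture of the injured knockout libraries. Gpnmb, a glycoprotein of lipid-laden macrophages, was at 4.31, 1.44 and 2.12 CPM before and 136, 172 and 116 CPM after injury (5.75 ± 0.47 SE, edgeR adjusted p = 1.67e-06), and the elastase gene Mmp12 at 3.77, 0.48 and 2.12 and 159, 93.1 and 72.2 CPM (5.67 ± 0.48 SE). The lipid receptor Trem2 went from 1.08, 0 and 0.424 to 39.3, 36.5 and 32.2 CPM, a ratio of 75.5 (95% counting interval 25.6 to 368). The Golgi protein gene Golm1, known to rise in diseased hepatocytes, went from 5.93, 2.88 and 2.97 to 41.5, 44 and 56.3 CPM (3.60 ± 0.37 SE), and Lrg1, a secreted protein of inflamed liver, from 447, 654 and 571 to 1904, 2611 and 1694 CPM (1.89 ± 0.28 SE). In each of these genes the 3 injured libraries lay above all 3 uninjured ones. As the genes were chosen with their values seen, this adds no support. The groups did not overlap in 39.4% of all genes tested.

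Among genes that fell outside the lists were enzymes typical of mature hepatocytes. Car3, a carbonic anhydrase, went from 2586, 1696 and 1570.4 to 427, 342 and 305 CPM (-2.45 ± 0.53 SE, adjusted p = 0.00692) and urate oxidase (Uox) from 1257, 2260.4 and 1348 to 367, 380.3 and 573 CPM (-1.88 ± 0.28 SE). The uridine phosphorylase gene Upp2 was at 275, 516 and 289 and 36.5, 26.7 and 108 CPM (-2.66 ± 0.48 SE) and Dpys, of pyrimidine breakdown, at 641, 786 and 521 and 166, 223 and 108 CPM (-1.97 ± 0.29 SE). Again the groups did not overlap in these genes, against 39.4% of all genes tested that did not.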
